A study of Drosophila melanogaster with 2 samples.

Results

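The peaks described here are those that Sox102F, a transcription factor of Drosophila melanogaster, gave on the X chromosome of whole embryos 12 to 14 h old. They are the 1470 rows on the X among the 7488 rows of the authors' optimal peak list, or 19.6% of it, and no measured value entered their choice. The arms 2L, 3L and 3R, with 1433, 1651 and 1724 peaks, served for comparison. Chromatin immunoprecipitation and sequencing (ChIP-seq) was done on a stable transgenic line in which Sox102F carried GFP at its C-terminus, and the antibody was directed at the GFP. The 2 samples were biological replicates, numbered 2 and 3, of that 1 group. No untagged line, second genotype or second age was analysed here. The labels do not give the sex of the embryos, so the number of X chromosomes per genome in the material is unknown. Whole embryos mix many cell types, and a peak present in a few cells cannot be told apart from a weaker peak in many.

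Sox102F is the SoxD protein of the fly. Sox proteins bind the minor groove of DNA through an HMG box that bends the double helix, and their core site is read as ACAAT on one strand and ATTGT on the other. The fly X differs from the autosomes in regulation, since males have a single copy: the MSL complex, guided by the roX RNAs, spreads from GA-rich entry sites over transcribed genes of the male X and raises their output. The dose of X-linked signal genes also sets sex early in the embryo through Sxl. Whether a factor occupies the X as it does the other arms is the question that the comparison of arms addresses.

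The X differed from the 3 autosomal arms more in where its peaks lay than in how many there were. More of its summits were in introns and fewer were between genes. Per Mb of each class, without the centromere ends, the intron difference was not shown against 3L, nor the intergenic one against 3R. Promoters within reach of 2 or more genes had fewer summits per Mb than those of the 3 arms together. In each replicate alone that last difference was not shown against 2L. In the optimal list, peak strength and the agreement of the replicates differed little from the arms. In the full pooled list the median peak strength was higher on the X. With 2 samples of 1 group, no test over samples was possible, so no p-value is given. The 95% intervals cover the counting of peaks alone, and since peaks lie in clusters they are too narrow.

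The 5 highest X peaks are shown by their sequence, because they show how AT-rich the summits were and where the short Sox core was and was not found. Each window holds 101 bases centred on the summit, from the plus strand of dm6 in the RefSeq sequence. Capitals mark ACAAT, or TAACA, which is the same 5 bases in reversed order, on either strand (ATTGT and TGTTA are their complements). The windows belong to a promoter peak of Ugalt (chrX:2703844-2703944), a peak in the non-coding gene lncRNA:Vinr (chrX:12751282-12751382) and an intronic peak of CG32772 (chrX:4910312-4910412). The last are promoter peaks of ph-p (chrX:2137291-2137391) and Gapdh2 (chrX:15867929-15868029), which held neither word.
Ugalt promoter: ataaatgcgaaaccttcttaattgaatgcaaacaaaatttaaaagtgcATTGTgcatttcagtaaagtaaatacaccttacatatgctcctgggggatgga
lncRNA:Vinr: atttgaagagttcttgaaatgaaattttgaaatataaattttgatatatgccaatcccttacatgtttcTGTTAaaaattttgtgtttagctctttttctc
CG32772 intron: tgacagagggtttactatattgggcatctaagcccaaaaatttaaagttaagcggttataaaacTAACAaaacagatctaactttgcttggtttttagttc
ph-p promoter: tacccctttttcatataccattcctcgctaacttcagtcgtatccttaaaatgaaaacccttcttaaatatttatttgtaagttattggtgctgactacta
Gapdh2 promoter: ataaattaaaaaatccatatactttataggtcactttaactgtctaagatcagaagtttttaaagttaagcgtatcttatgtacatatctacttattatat

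Of the 10 highest X peaks 3 held ACAAT in this window, 5 held TAACA and 6 held either. Their windows had a GC content from 18.8% to 40.6%, with 33.7% at Ugalt, 24.8% at lncRNA:Vinr and 22.8% at Gapdh2. Over all 1470 X peaks the 101 bases at the summit had a mean GC content of 31.1% ± 7.99 (SD over peaks), against 43.9% in windows of equal width 300 bp to either side and 42.5% over the whole X. The 3 arms had 30.3% ± 8.04, 44.6% and 42.0%. The summits were therefore a local dip in GC content on the X as on the arms. The peaks themselves had a median width of 288.5 bp on the X and 303 bp on the arms.

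ACAAT, on either strand, lay within 50 bp of 470 of the 1470 X summits, or 32.0% (29.6 to 34.4, Wilson interval). It lay in 23.7% of the flanking windows and in 24.9% of all windows of this width along the X, a centre-to-flank ratio of 1.35 (1.22 to 1.49). The longer AACAAT, which contains ACAAT, gave 15.9% at the centre and 10.1% in the flanks, a ratio of 1.58 (1.35 to 1.85). TAACA, the reversed order, gave 29.5% and 17.6%, a ratio of 1.67 (1.50 to 1.87), so the ratio of the true core was no higher than that of its reversed control. ACAAAG, a word that Sox and TCF proteins both bind, had a ratio of 0.935 (0.745 to 1.17). Words that are AT-rich stand higher wherever GC content dips, and the part of base composition in these ratios was not tested.

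The X is richer than the arms in the 2 simple repeats counted here. On the X as on the arms, summit windows held them less often than all windows did. The flanks, 300 bp away, held them more often than all windows did. GAGAGAGA, a run of the GA repeat found in MSL entry sites, was in 0.780% of all windows of the X and in 0.525% of those of the 3 arms. It was in only 4 of the 1470 X summit windows, or 0.272% (0.106 to 0.698), against 1.97% of the flanks. The 3 arms were alike, with 12 of 4808 summit windows, or 0.250%, against 1.49% of the flanks, a ratio of 0.168. The X ratio of 0.138 rests on few peaks: it was 0.0351 without replicate 2 and 0.172 without replicate 3. CACACACA was in 16 X summit windows, or 1.09%, against 6.26% of the flanks and 3.01% of all X windows. On the 3 arms CACACACA was in 0.603% of summit windows, 3.89% of the flanks and 1.92% of all windows. TAATTA, a core word of homeodomain proteins, went the other way, with 12.1% at X summits and 4.76% in the flanks, a ratio of 2.54 (2.06 to 3.14). Its ratio on the arms was 2.08 (1.86 to 2.33). The GATA word AGATAA had ratios of 1.54 (1.23 to 1.94) on the X and 1.86 (1.64 to 2.11) on the arms.

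The X had 62.6 summits per Mb (59.5 to 65.9, exact Poisson interval) and the 3 arms together 57.5 (55.9 to 59.2), a ratio of 1.09 (1.03 to 1.15, exact conditional binomial interval). Against single arms the ratio was 1.03 (0.955 to 1.11) for 2L, 1.06 (0.989 to 1.14) for 3L and 1.16 (1.09 to 1.25) for 3R. The centromere ends of the arms carry few genes and almost no peaks, and they make up more of 3L and 3R than of the X. Cut back to the first Mb with at least 50 protein-coding genes, the X lost 2 Mb with 13 summits, 2L lost 1 Mb with 1, 3L lost 5 Mb with 2 and 3R lost 4 Mb with 0. The X then had 67.6 summits per Mb and the arms 65.2, a ratio of 1.04 (0.978 to 1.10), and 3L, with 71.4, stood above the X. The interval of the ratio then included 1. Per protein-coding gene the X had 0.669 summits and the arms 0.545, a ratio of 1.23 (1.16 to 1.30), with 93.5 such genes per Mb on the X and 106 on the arms.

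How dense the X was depended on how deep into a list the count went, and the replicates differed in the full lists. Among the 500 highest peaks the ratio to the arms was 0.965 (0.752 to 1.23) in replicate 2 and 0.967 (0.755 to 1.23) in replicate 3. Among the 7488 highest it was 1.05 (0.989 to 1.11) in replicate 2 and 1.07 (1.01 to 1.14) in replicate 3. Over all 30000 peaks of each list it was 0.881 (0.854 to 0.909) in replicate 2 and 1.02 (0.990 to 1.05) in replicate 3. Without the centromere ends these last values were 0.837 (0.811 to 0.864) in replicate 2 and 0.968 (0.939 to 0.998) in replicate 3. The full lists were then sparser on the X than on the 3 arms together in both replicates, more so in replicate 2. In replicate 3 this held against 3L, at 0.871 (0.841 to 0.903). It did not hold against 2L, at 1.01 (0.975 to 1.05), or 3R, at 1.03 (0.990 to 1.06). In replicate 2 the ratio was 0.866 against 2L, 0.758 against 3L and 0.889 against 3R. The cause was not tested.

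**Figure D1:**
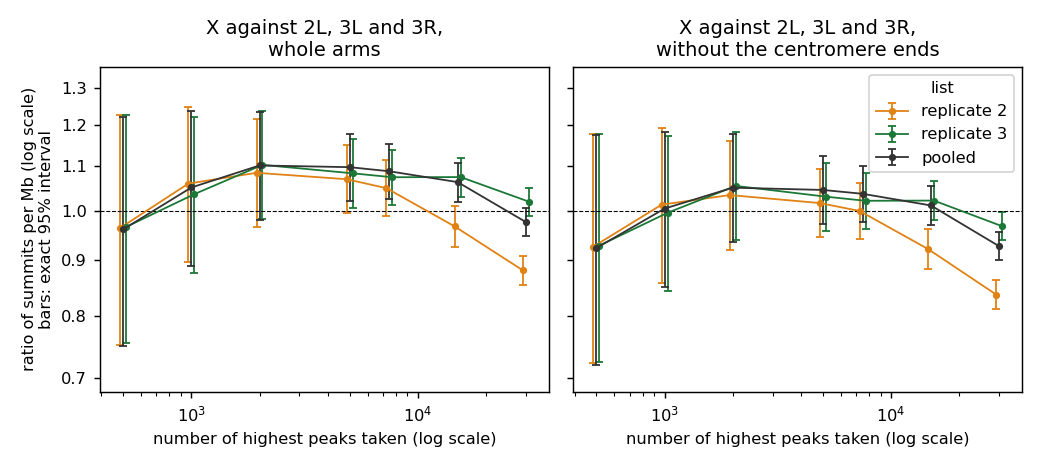
Ratio of summits per Mb on the X to that on 2L, 3L and 3R (vertical axis, log scale) against the number of highest peaks taken from a list (horizontal axis, log scale), for replicate 2, replicate 3 and the pooled list; error bars are exact 95% intervals for the counting of peaks. On whole arms replicate 2 ends at 0.881 and replicate 3 at 1.02. Without the centromere ends they end at 0.837 and 0.968, and every point up to 7488 peaks has an interval that includes 1.

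Along the X the count per Mb ranged from 29 to 103 outside the centromere end, with a median of 69. The highest Mb was that from 3 to 4 Mb, with 103 optimal summits, 109 among the 7488 highest peaks of replicate 2 and 94 among those of replicate 3. It held only 55 protein-coding genes, and the gene-richest Mb, that from 15 to 16 Mb with 141 genes, held 53 summits. The Mb from 6 to 7 Mb held 94 and that from 7 to 8 Mb held 89. The tip was sparse: the first Mb held 33 optimal summits, 31 in replicate 2 and 34 in replicate 3, and the second 44, 42 and 48. The first full Mb from the tip held 77 on 2L, 103 on 3L and 57 on 3R, as the plot of counts along the arms shows. In both replicates the first Mb of the X held fewer summits than every Mb from 2 to 20 Mb.

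**Figure D2:**
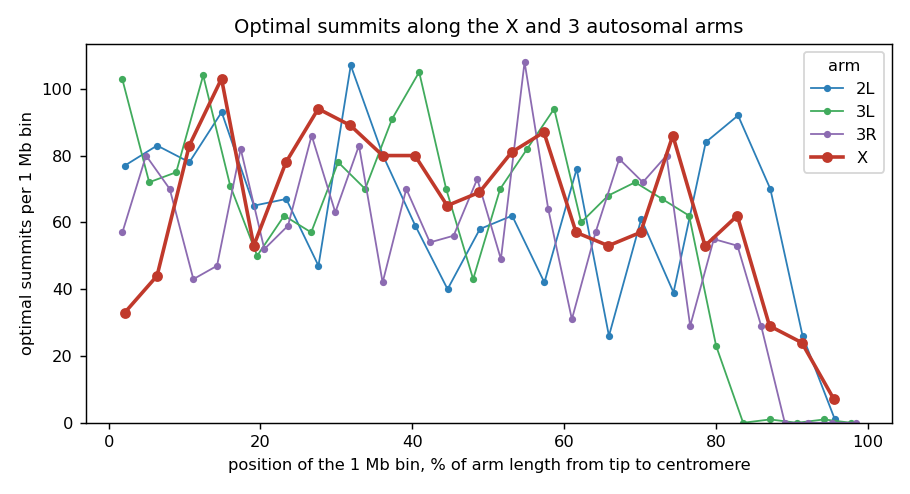
Optimal summits in each 1 Mb bin (vertical axis) against the bin's position as a percentage of arm length from tip to centromere (horizontal axis), 1 line per arm. The X starts at 33, reaches 103 in the bin from 3 to 4 Mb and falls to 7 in its last full bin.

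Peaks on the X came in clusters. Of its 235 bins of 100 kb, 23 were empty, the median bin held 6 summits and 13 bins (5.53%) held 15 or more. The arms had 7.66% (2L), 7.12% (3L) and 3.44% (3R) of such bins. The variance of the counts was 3.59 times their mean on the X, and 3.92, 5.38 and 3.76 times on 2L, 3L and 3R, with the near-empty centromere ends included. Without those ends it was 3.14 times on the X and 3.66, 4.13 and 2.99 times on the arms, so the X lay between 3R and 2L. Neighbouring X summits had a median distance of 5451 bp, and 208 of them, or 14.2%, were within 1 kb of the next, against 11.6% to 12.8% on the arms.

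In 4 of the 5 densest bins of the X most summits lay inside 1 long gene. The bin chrX:3000001-3100000 held 21 summits (21 in replicate 2 and 17 in replicate 3), all in introns of kirre, which encodes an immunoglobulin-family adhesion protein that lets muscle founder cells attract and fuse with other myoblasts. The bin chrX:13200001-13300000 held 18, of which 12 were in mew, the gene of an integrin alpha subunit. None of its 12 protein-coding genes was promoter-bound in the optimal list. The replicates' own lists, however, had a promoter summit of mew at 162 in replicate 2 and 232 in replicate 3, against 61.5 in the pooled list. HDAC4 in this bin had a promoter summit of 102 in replicate 3 and none in replicate 2. The bin chrX:3700001-3800000 held 17, of which 15 were in Tlk, a Tousled-like protein kinase. The bin chrX:5900001-6000000 differed, with 17 summits among 15 genes and only 4 of them in CG3726, the gene with the most sequence there. In it the promoters of Act5C, a cytoplasmic actin, and Grip were bound, at signal values of 334 and 173. In chrX:7300001-7400000 all 17 were in CG1677, within which lie the bound promoters of CBP (1445) and of Dok and Atg5, which share a summit of 159. The counts of these bins in the replicates' 7488 highest peaks were 15 to 21. The single densest bin was one of 21 summits on the X and on 2L, of 32 on 3L and of 23 on 3R.

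Over whole genes, kirre held the most summits of the X with 43 in 394 kb, 42 in replicate 2 and 37 in replicate 3. CG1677 held 22 in 125 kb, CG43658 held 21 in 105 kb and Ten-a, the gene of a teneurin that matches synaptic partners, held 17 in 292 kb. Tlk held 15 in 69.8 kb, the highest number per length of these 5 genes (2.15 per 10 kb, against 1.09 in kirre). No summit lay at a promoter of kirre, whose nearest summit to a TSS was 1253 bp away. On the X 393 of 2196 protein-coding genes, or 17.9%, had a summit in the gene, against 14.3% on 2L, 14.9% on 3L and 13.7% on 3R. The X had 19 genes with 10 or more summits, against 9, 16 and 12. Its genes were also longer, with a median of 2.52 kb against 1.99, 2.13 and 2.12 kb, and the part of gene length in these counts was not tested.

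The longest stretch of the X without an optimal summit was chrX:21631701-22479632, which spans 848 kb and 29 protein-coding genes, with 33.9% of its bases soft-masked as repeats and 7.59% unknown. Even the pooled list had 1 summit there, replicate 2 had 1 and replicate 3 had 8. The second was the centromere end itself, chrX:23071425-23542271, with 8 genes including su(f). The third, chrX:20797707-21036113, was of another kind: it holds 14 genes, part of the innexin gene shakB among them, and 23 pooled summits, 24 in replicate 2 and 20 in replicate 3, none of which ranked among the optimal peaks.

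Introns held 851 X summits, or 57.9% (55.3 to 60.4), against 45.3% on the 3 arms, a difference of 12.6 percentage points (9.73 to 15.5, Newcombe interval). No arm reached the X, with 42.4% on 2L, 45.2% on 3L and 47.6% on 3R. Introns made up 41.2% of the bases of the X and 39.4% of those of the arms, centromere ends included. Without those ends they were 9.51 of 21.5 Mb on the X and 28.3 of 73.7 Mb on the arms, a wider gap. Intergenic sequence held 193 X summits, or 13.1% (11.5 to 14.95), against 23.2% on the arms, a difference of -10.1 points (-12.1 to -7.92), and 23.0% of the bases of the X against 28.7%. Promoters, within 500 bp of a TSS, held 353, or 24.0% (21.9 to 26.3), against 27.9%, and 11.0% of the bases against 11.3%. Coding sequence held only 6 X summits in 14.1% of the bases, 3′ UTRs held 15 and 5′ UTRs 10. The remaining 42 were in genes that do not encode proteins.

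**Figure D3:**
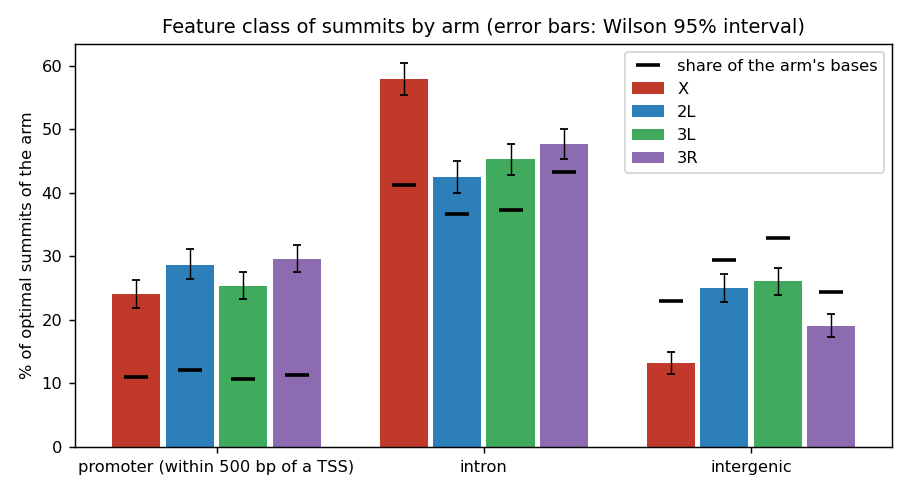
Share of each arm's optimal summits at promoters, in introns and between genes (bars, with Wilson 95% intervals). Black marks show the share of the whole arm's bases, centromere end included, in the same class. The X bar is the highest of the 4 arms in introns, at 57.9%, and the lowest between genes, at 13.1%.

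Counted per Mb of the class, X introns held 87.8 summits and those of the arms 66.0, a ratio of 1.33 (1.23 to 1.44). Without the centromere ends, where long introns hold almost no peaks, the values were 89.0 and 76.7, a ratio of 1.16 (1.07 to 1.26). By arm it was then 1.23 (1.11 to 1.37) against 2L and 1.20 (1.09 to 1.32) against 3R, but 1.06 (0.956 to 1.17) against 3L, so a difference from 3L was not shown. For genes over 100 kb the change was largest: 62.6 summits per Mb of intron on the X against 26.4 on the arms, and 62.6 against 51.3 (1.22, 0.989 to 1.50) without the centromere ends. Intergenic sequence, without the centromere ends, held 46.0 summits per Mb on the X and 58.9 on the arms, a ratio of 0.782 (0.666 to 0.913). Against 3R alone this ratio was 0.942 (0.783 to 1.13).

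The 353 promoter summits of the X made 358 of its 2196 protein-coding genes promoter-bound, or 16.3% (14.8 to 17.9), and this is the background against which the gene groups below are read. On the 3 arms 1587 of 8817 genes were bound, or 18% (17.2 to 18.8). The difference of -1.70 points (-3.39 to 0.0897) had an interval that included 0. The call was not stable: replicate 3 alone gave -2.22 (-4.04 to -0.318) and replicate 2 alone -1.66 (-3.29 to 0.0766). Peaks above the median signal gave -1.66 (-3.08 to -0.140), and 3L alone gave -2.17 (-4.28 to -0.0370). Counted within 250 bp the difference was -2.77 points (-4.19 to -1.25). On the X 49 genes had 2 or more promoter summits.

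Promoters within reach of more than 1 gene, as at divergent gene pairs, carried fewer summits on the X. On the X 64 of the 353 promoter summits, or 18.1% (14.5 to 22.5), lay within 500 bp of TSSs of 2 or more protein-coding genes. On the arms 439 of 1340 did, or 32.8% (30.3 to 35.3), with 29.0% on 2L and 34.4% on both 3L and 3R. The sequence within reach of 2 or more genes was 11.2% of all promoter bases on the X and 13.3% on the arms. Per Mb of such sequence the X had 221 summits and the arms 349, a ratio of 0.632 (0.479 to 0.824). It was 0.722 (0.524 to 0.986) against 2L, 0.573 (0.420 to 0.775) against 3L and 0.620 (0.459 to 0.830) against 3R. Each replicate alone gave a like ratio to the 3 arms together, 0.626 (0.464 to 0.830) in replicate 2 and 0.663 (0.521 to 0.835) in replicate 3, although replicate 3 had more such summits on every arm. Against 2L the interval then included 1 in both replicates, at 0.723 (0.513 to 1.01) in replicate 2 and 0.766 (0.579 to 1.01) in replicate 3. At promoters within reach of 1 gene the X had 125 summits per Mb and the arms 110, a ratio of 1.14 (0.998 to 1.31). The genes of the X with a TSS this near another gene's TSS were 28.5% of its genes, against 31.7% on the arms.

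**Figure D4:**
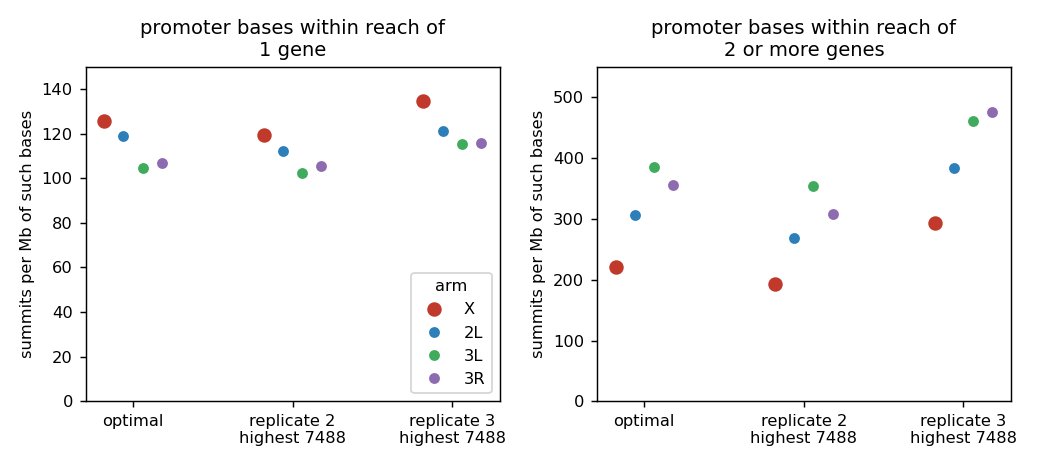
Summits per Mb of promoter sequence within 500 bp of 1 gene (left) and of 2 or more genes (right), by arm, in the optimal list and in the 7488 highest peaks of each replicate. On the right the X is the lowest arm in all 3 lists, at 221 in the optimal list, and on the left it is the highest, at 125.

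The strongest X summits at promoters of 2 genes, picked after their values were seen, give examples. A summit at promoters of Stt3A, a subunit of oligosaccharyltransferase, and bves had a signal value of 1490, with 592 in replicate 2 and 905 in replicate 3. One at CG42353 and CG42354 had 1100, with 426 and 669. One at CG45064 and CG45065 had 940, with 319 and 617. One at PIG-Q and U2af50, the latter the gene of a splicing factor subunit, had 918 in the optimal list and 539 in replicate 3, and no peak of replicate 2 overlapped it. One at TH1 and mei-41, the fly's ATR kinase, had 775, with 267 and 507. Except at PIG-Q and U2af50, both replicates had a peak at these summits.

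The signal value, the authors' score of each peak, ranged from 97.3 to 4086 on the X, with a median of 205 (196 to 216) and quartiles of 137 and 370. The median on the 3 arms was 203 (197 to 208), a log2 difference of 0.02 (-0.05 to 0.09). That last interval carries the spread of the X median alone, so it is too narrow. Promoter peaks had a median of 263 on the X and 267 on the arms, intronic peaks 200 and 188, and intergenic peaks 169 and 180. The X held 14 of the 77 peaks on these 4 arms that were among the 100 highest, or 18.2% (11.2 to 28.2), and 23.4% of all. No difference in strength was shown in the optimal list. In the full pooled list, which holds the weak peaks, the median was 46.4 on the X and 41.7 on the arms. That log2 difference was 0.15 (0.102 to 0.196, again with the spread of the X median alone), so the X median was higher there.

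The highest X peak was at the promoter of Ugalt, a carrier of UDP-galactose into the Golgi, with a signal value of 4086 (1493 in replicate 2 and 2604 in replicate 3), its summit 42 bp upstream of the TSS. The second, 3256, was in lncRNA:Vinr (1221 and 1989), and the tenth, 1935, in lncRNA:CR44619 only 1026 bp away (771 and 1167). The nearest protein-coding TSS to both was that of CG4004, more than 5 kb away, at 5015 and 6041 bp. The third, 3056, was in an intron of CG32772 (1050 and 1997). The fourth and seventh, 3041 and 2022, were 576 bp apart at promoters of ph-p, a Polycomb-group gene of the PRC1 complex. Replicate 2 had 1146 and 917 at these 2 peaks, and replicate 3 had 1954 and 1143. The gene has a near-identical tandem copy, ph-d, so reads there may have been shared between the copies.

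The fifth, 2523, was at the promoter of Gapdh2, a glycolytic enzyme (941 and 1589). The sixth, 2030, was in an intron of Tlk (731 and 1300), the eighth, 2022, in an intron of Raf, the kinase that passes receptor signals from Ras to MAPK (703 and 1322), and the ninth, 1936, in an intron of CG3726 (689 and 1246). Replicate 3 had the higher value at each of the 10 peaks. That holds for most X peaks, with a median log2 ratio of replicate 3 to replicate 2 of 0.66, and 0.65 on the arms. Since no depth scaling is stated for the values, that ratio shows no difference in binding.

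The replicates shared nearly as many peaks on the X as on the arms. Of the 1470 X peaks 1407, or 95.7% (94.6 to 96.6), overlapped a peak of both replicates by at least 1 bp, against 96.2% on the arms, a difference of -0.500 points (-1.76 to 0.587). The full replicate lists, of 30000 peaks each, were part of how the optimal list was made, so this share is a description. When the overlap had to cover 50% of both intervals it was 70.7% on the X and 72.3% on the arms. Over the 1407 shared peaks the signal values of the replicates had a Pearson r of 0.918 on the log2 scale and a Spearman rho of 0.886. On the arms they were 0.904 and 0.867. Of the 100 highest X peaks of replicate 2, 87 overlapped one of the 100 highest of replicate 3, and of the 1000 highest 84.0% did.

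**Figure D5:**
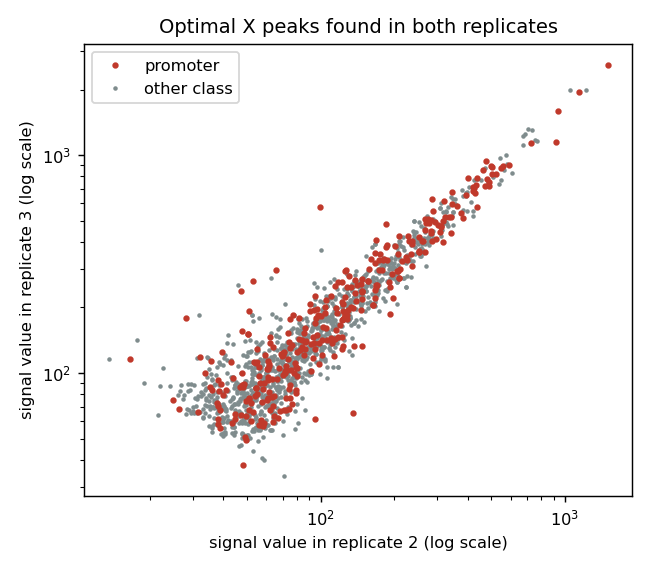
Signal value in replicate 3 (vertical axis, log scale) against that in replicate 2 (horizontal axis, log scale) for the 1407 optimal X peaks with a peak in both replicates; promoter peaks are red and all others grey. The points follow one line (r = 0.918 on the log2 scale) and scatter more among weak peaks, and the few points far above the line are stronger in replicate 3.

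The peaks missing from 1 replicate were uneven, on the X as on the arms. Of the 4808 peaks of the 3 arms, 159 had a peak in replicate 3 alone and 23 in replicate 2 alone. On the X 54 peaks had a peak in replicate 3 alone and 9 in replicate 2 alone. Of the 54, 25 were at promoters, or 46.3%, against 23.2% of the 1407 shared peaks. Their mean GC content was 34.6% ± 8.79 (SD over peaks), against 30.9% ± 7.93. Their median signal value was 180, and that of the 9 was 105. The highest of the 54 were those of PIG-Q and U2af50 (918), of an intron of CG1737 (758), of the promoter of sqh (553), of CG8188 and par-6 (450) and of fliI and tty (437), named because they were the highest after values were seen. Promoter peaks found by 1 replicate alone were thus mostly those of replicate 3, and the cause was not tested.

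Of the dosage compensation genes, 3 lie on the X, and none had a summit in the gene or, for mof, within 500 bp of its TSS. At roX1 the nearest summit was 4484 bp from a TSS, at the promoter of yin, with a signal value of 107 (44.6 in replicate 2 and 64.9 in replicate 3). At roX2 it was 1419 bp from the TSS but only 52 bp past the end of the gene, which the peak interval overlapped. It lay at the promoter of nod, a kinesin-like protein, with 238 in the optimal list, 145 in replicate 3 and no peak in replicate 2. At mof, the histone H4 lysine acetyltransferase of the MSL complex, it was 3769 bp away with 214, again with no peak in replicate 2. The other genes of the list, msl-1, msl-2, msl-3, mle and Clamp, are not on the X.

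Of the 5 X-linked elements of sex determination, Sxl was the 1 bound, with 347 at a promoter (126 and 224), and had 4 summits in the gene, the highest 616. The X-linked signal genes sisA, sc, upd1 and run, which turn Sxl on in females before the stage sampled here, had no summit in the gene or at a promoter. Sxl encodes the splicing regulator that keeps the female state.

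Among 12 neural transcription factors and neuronal RNA regulators 2 were bound, or 16.7%, close to the background of 16.3%. The promoter of elav, the neuronal RNA-binding protein used as a marker of neurons, had 1372 (501 in replicate 2 and 879 in replicate 3), and that of peb, a zinc-finger factor, had 140 (68.0 and 67.3). The proneural genes ac, sc, l(1)sc and ase had no summit in the gene, and the nearest were 7780 to 47470 bp from a TSS. These 4 genes lie in the sparse first Mb described above, as does the bound elav, and the part of position was not tested. Among 16 neuronal adhesion, channel and synapse genes 4 were bound. They were dnc, a cAMP phosphodiesterase needed for memory, with 1419 (545 and 872), sdk with 582 (202 and 383), Fas2, a neural adhesion protein, with 138 (48.8 and 88.8) and Ten-a with 122 (63.5 and 59.5). The channel genes para, Sh and cac had no summit in the gene, whereas dnc had 12.

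Of 21 patterning and other transcription factors 4 were bound, or 19.0%. Mnt, the partner of Max that opposes Myc, had 321 (106 and 216), and 10 summits in the gene. The ecdysone receptor partner usp had 263 (116 and 158), the juvenile hormone receptor gce had 216 (76.4 and 135), and Bx, an LMO protein, had 127 (57.3 and 73.3). Hr4, a nuclear receptor, had 11 summits in the gene, the highest 1419, without 1 at a promoter. Segmentation genes gt, run, oc and btd had no summit in the gene. Of 22 signalling genes 4 were bound, or 18.2%. The receptor tyrosine phosphatase Ptp4E had 1307 (462 and 851), sgg, the fly's GSK3 kinase, had 1210 (490 and 723), N, the Notch receptor, had 193 (91.5 and 102), and the insulin-like peptide Ilp7 had 155 (74.3 and 84.2). Raf had 13 summits in the gene and Ptp10D 10, with no optimal summit at a promoter of either.

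Of 10 muscle, integrin and cytoskeleton genes 3 were bound, or 30% (10.8 to 60.3). They were sqh, the myosin regulatory light chain, with 553 (no peak in replicate 2 and 358 in replicate 3), Act5C with 334 (133 and 190) and if, an integrin alpha subunit, with 303 (128 and 177). The troponin genes up and wupA were not. Act5C is one of a family of near-identical actins. Of 11 chromatin genes 4 were bound, or 36.4% (15.2 to 64.6): ph-p, Top1 with 331, the cohesin release factor wapl with 269 and ph-d with 253. The interval includes the background. The Top1 promoter had 244 in replicate 3 and only 32.3 in replicate 2. Dalao and e(y)1 of this list were not found on the X under these names.

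Of 14 cytoplasmic ribosomal protein genes 5 were bound, or 35.7% (16.3 to 61.2), at values from 159 to 246. They were RpL22 (122 in replicate 2 and 128 in replicate 3), RpL17 (73.9 and 139), RpS10b (136 and 65.6), RpL37-1 (98.7 in replicate 3 alone) and RpS19a (95.3 and 61.9). None of the 14 had a summit inside the gene. For RpS14a and RpS14b, which were not bound, reads may have been shared between near-identical copies. Of 11 mitochondrial ribosomal protein genes 0 were bound (an interval of 0 to 25.9%). Among them mRpS25 had a promoter summit of 68.8 in replicate 2 alone, and its nearest optimal summit lay 523 bp from its TSS. The others had no promoter summit in either replicate. Of 8 pigment and body colour genes 1 was bound, cm, a subunit of the AP-3 adaptor, with 542 (215 and 327), and y, w, v, g, car, rb and ras were not. The interval of the bound share included the background of 16.3% in every list except that of the cytoplasmic ribosomal protein genes, whose lower bound lay at that value. That share counts RpL37-1, which had no peak in replicate 2. Several unbound genes of this list had a promoter peak in replicate 3, such as RpS5a (78.5) and RpL7A (53.4), but not in replicate 2. RpL36 and RpS28b had none in either. The share thus rests on few genes and on the replicate, and no departure from the background is drawn from it. Lists of 1 to 22 genes cannot show small departures from the background.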

How the data were processed

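The authors deposited narrowPeak lists on dm6 for each replicate, for both pooled (30000 peaks each) and an optimal list of 7488, the highest pooled peaks. Per the file headers, these came from alignments and a control that was not analysed here. Neither the aligner nor the peak caller is given in the sources used here, and depth is unknown. The deposited signal value has no stated scaling, so it was compared within a list. The deposited −log10 q-value was not used. The age of 12 to 14 h was taken from the source name in the labels.

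Summits were placed on Ensembl release 115 genes in the order promoter (500 bp), 5′ UTR, CDS, 3′ UTR, intron, non-coding gene, intergenic. A gene was promoter-bound with a summit within 500 bp of any TSS. In 15 X rows the interval of another row was repeated, and all rows were counted. Words were counted on both strands. The rows were picked by chromosome name alone. That rule, the 11 gene lists, the 11 words and the settings were chosen with earlier results of these data known. Named were the 10 highest peaks, the 5 densest bins of 100 kb, the 5 genes with the most summits, the 3 longest gaps and the bound members of each list. Counting was tested on simulated data. The tools were Python 3.11.15, pandas 2.3.3, numpy 2.4.6, matplotlib 3.10.9 and, for intervals, scipy 1.17.1.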

Additional observations from a re-analysis of the deposited data

How the results depend on the processing

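The density ratio of the X to the arms fell below 1 in the full pooled list (0.977) and in the full list of replicate 2 (0.881). It was 1.02 in the full list of replicate 3, 1.23 per protein-coding gene and 1.16 against 3R alone. The 7488 highest peaks of 1 replicate gave 1.05 to 1.07. Summits per Mb of intron had a ratio of 1.21 outside genes over 100 kb and 1.16 without the centromere ends. The median log2 difference of signal values was 0.15 in the full pooled list. The difference in the share found by both replicates was 0.599 points, and no longer below 0, among peaks above the median signal. Of the 5 densest bins, 2 overlapped the 5 densest with bins of 50 kb, and 3 with bins shifted by 50 kb. With 100 bp either side of the summit the ratio was 1.21 for ACAAT and 1.47 for TAACA. The deficit at promoters shared by genes lay between 0.493 (window of 250 bp) and 0.770 (1000 bp) over settings added after seeing the data. No paired analysis was possible because there was 1 group. Limits are the unknown depth, the unknown sex of the embryos and the clustering of peaks.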
